A study of Mus musculus with 9 samples.

Results

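SHP-1, encoded by Ptpn6, was described here together with 7 other protein tyrosine phosphatase genes (Ptpn22, Ptpn2, Ptpn11, Ptpn7, Ptpn1, Ptprc and Ptprj) in iNKT1 cells of mouse thymus, liver and spleen. The 8 genes were taken by symbol from a list, and all 8 were found among the 14004 genes of the deposited table and were among the 13309 that passed the filter on low values. They were chosen from earlier results on the same 9 libraries, in which Ptpn6 differed between tissues. Their tissue levels and differences are therefore a description, and the threshold passed by a member is given to show its size beside the spread and not as a test. RNA-seq was carried out on 3 thymus, 3 liver and 3 spleen libraries, which the design text calls independent replicates. All cells came from C57BL/6 mice with the genotype Tbx21CreTg;Rosa26-LSL-YFP+/+, in which the Tbx21 gene drives Cre and Cre switches on YFP. No treatment is named, all groups share the Cre and the reporter, and no group is without them. The age of the mice and the number of animals per library are not given in the sources used here. Each value is a normalised read count made by the authors, and a tissue's mean is followed by its SD over 3 libraries.

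Invariant natural killer T cells recognise lipids on CD1d through a semi-invariant T cell receptor, and iNKT1 cells are the subset with the transcription factor T-bet, the product of Tbx21. Tyrosine phosphatases remove the phosphate groups that kinases such as Lck, Zap70 and the Jak family add after receptor engagement. SHP-1 is a cytosolic enzyme with paired SH2 domains that bind phosphorylated inhibitory motifs in receptor tails, and it is known as a brake on antigen receptor and cytokine signalling. CD45, encoded by Ptprc, spans the membrane and keeps Lck available by removing its inhibitory phosphate.

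The sequence upstream of Ptpn6 is shown because Ptpn6 was the member whose 3 tissues separated most, and that of Ptprc because its level varied least between libraries. RefSeq promoters on GRCm38.p6, the assembly that mm10 denotes, run from 250 bases before to 50 bases after an annotated start and were found for 7 of the 8 genes. Both are printed in the direction of transcription (minus strand), and capitals mark GGAAGT, the core bound by ETS factors, and GGGCGG, the GC box, on either strand.
Ptpn6 (chr6:124738660-124738959): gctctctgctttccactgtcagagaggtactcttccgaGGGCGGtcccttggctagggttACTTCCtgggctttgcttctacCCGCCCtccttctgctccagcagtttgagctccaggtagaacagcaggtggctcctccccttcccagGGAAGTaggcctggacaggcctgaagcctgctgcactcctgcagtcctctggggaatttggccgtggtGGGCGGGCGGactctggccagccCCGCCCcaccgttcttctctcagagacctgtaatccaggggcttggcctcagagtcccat
Ptprc, the first of its annotated starts (chr1:138175256-138175555): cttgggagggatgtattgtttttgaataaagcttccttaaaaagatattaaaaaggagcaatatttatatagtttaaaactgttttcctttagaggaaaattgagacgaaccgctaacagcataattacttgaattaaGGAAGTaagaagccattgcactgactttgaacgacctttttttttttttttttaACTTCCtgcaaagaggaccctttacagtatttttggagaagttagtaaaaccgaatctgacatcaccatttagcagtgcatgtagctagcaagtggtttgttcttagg
The Ptpn6 window was 61.7% G and C, against 33.7% for Ptprc and a median of 52.7% over all 32841 windows. It held 5 GC boxes, of which 1 pair overlaps, and 2 ETS cores. The Ptprc window held 2 ETS cores and no GC box. It is matched to 5 transcripts, and a second annotated Ptprc start to 10. The window of that second start was 39.3% G and C and held 1 ETS core. GGGCGG stood in 35.7% of all windows and GGAAGT in 23.8%. Of the 3 other motifs searched on both strands, the E-box CACCTG was found at 1 place in the Ptpn6 window (20.2% of all windows hold it). TGTGGT, the RUNX core (16.8% of windows), and GGTGTG, a T-box core (19.0%), were not found in the Ptpn6 window. These matches describe letters, and no binding was measured. The Ptpn6 window is that of 1 annotated start, matched to 1 transcript, at the 5' end of the gene. Which start iNKT1 cells use was not measured.

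Ptpn6 (ENSMUSG00000004266, chr6:124720707-124738714 on the minus strand) had normalised read counts of 16256, 12080 and 10409 in thymus replicates 1, 2 and 3. In liver they were 4229, 3444 and 3829, and in spleen 3417, 1692 and 2319. Every thymus library lay above every liver library. Every liver library lay above every spleen library, but narrowly (3444 in liver replicate 2 against 3417 in spleen replicate 1). The means were 12915 ± 3012 in thymus, 3834 ± 392 in liver and 2476 ± 873 in spleen. By these means thymus was 3.37-fold above liver and 5.22-fold above spleen, and liver was 1.55-fold above spleen. Counts covered all exons of the gene, so splice forms of SHP-1 are not told apart. In bulk RNA, fewer cells with a transcript and less transcript per cell cannot be told apart.

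**Figure D1:**
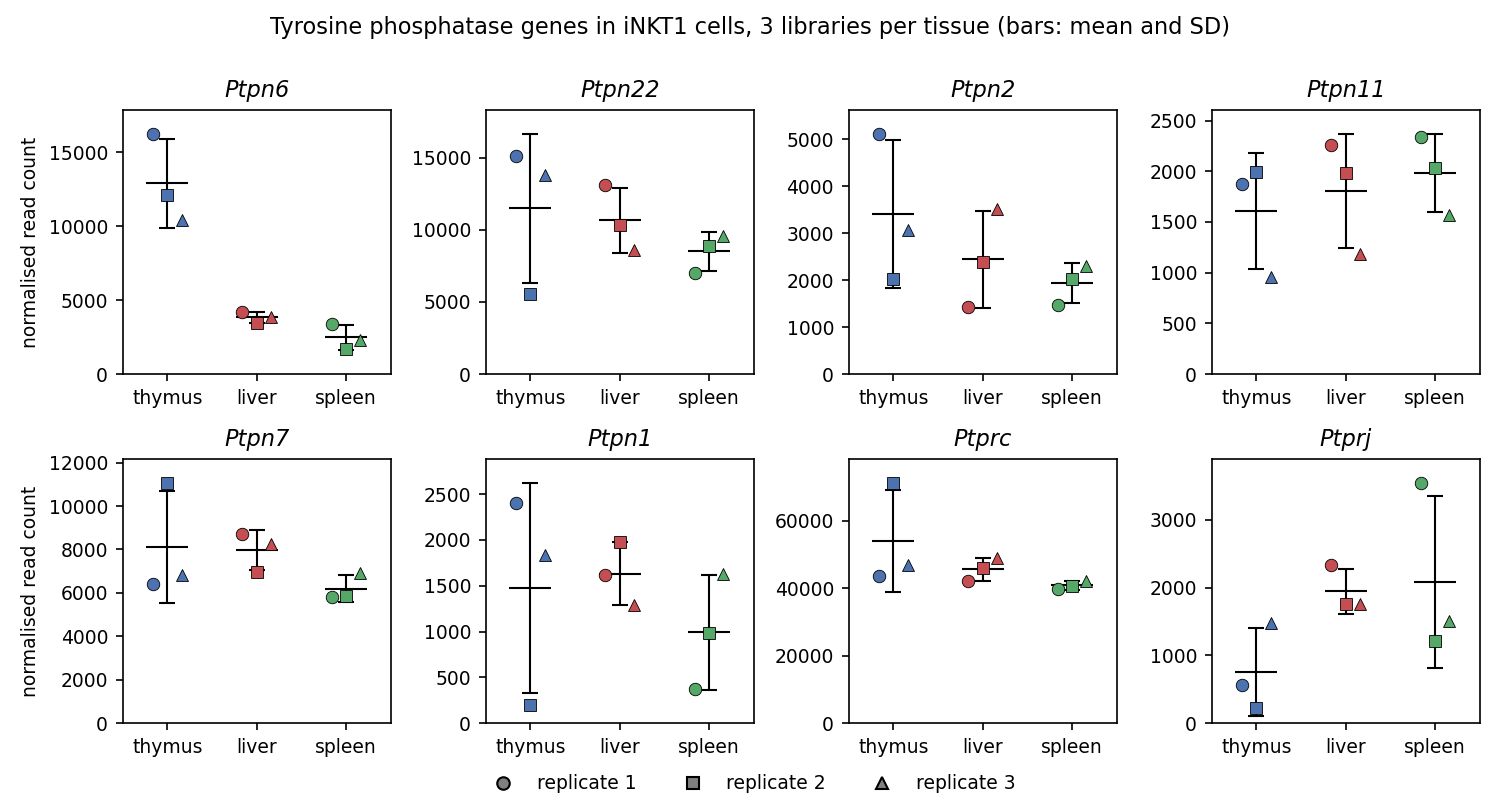
Normalised read count (vertical axis, from 0) of each of the 8 phosphatase genes in the 9 libraries, by tissue, with the mean and SD as bars. The 3 thymus libraries of Ptpn6 lie between 10409 and 16256 and all other Ptpn6 values at or below 4229. The mean of Ptprj is lowest in thymus, where its libraries overlap those of spleen. The tissues of Ptpn22, Ptpn2, Ptpn11 and Ptpn1 overlap in each comparison.

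On the log2(value + 1) scale of limma, a linear model fitted across all genes with 1 term per tissue, the Ptpn6 difference was -1.73 (SE 0.32) for liver against thymus and -2.42 (SE 0.32) for spleen against thymus. The liver against spleen difference was 0.69 (SE 0.32). The median of all genes lay at 0.29, 0.33 and -0.02 in these comparisons, and relative to it the Ptpn6 differences were -2.03, -2.74 and 0.71. Ptpn6 passed the threshold, a Benjamini-Hochberg adjusted p under 0.05 over all genes, in both thymus comparisons, with adjusted p = 0.0292 and 0.00331 in limma. It did not pass in liver against spleen (adjusted p = 0.9999, unadjusted p = 0.0504 in limma), where its libraries did not overlap either. Both thymus comparisons share the thymus libraries.

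Under 23 alternative settings the spleen difference of Ptpn6 lay between -2.73 and -2.17 and passed in 23, with adjusted p from 4.82e-09 to 0.0455 over limma, edgeR and DESeq2. The liver difference lay between -2.02 and -1.55 in the same settings and passed in 15, with adjusted p from 0.000103 to 0.296. In limma it missed the threshold without liver replicate 1 (adjusted p = 0.121), liver replicate 2 (0.188) or liver replicate 3 (0.183). It also missed it without thymus replicate 1 (0.0769), thymus replicate 2 (0.0523) or spleen replicate 3 (0.0506), with only the 6 thymus and liver libraries (0.0506), and with only the libraries numbered 1 and 3 (0.296). The direction was the same in 23 of 23 settings for both.

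**Figure D2:**
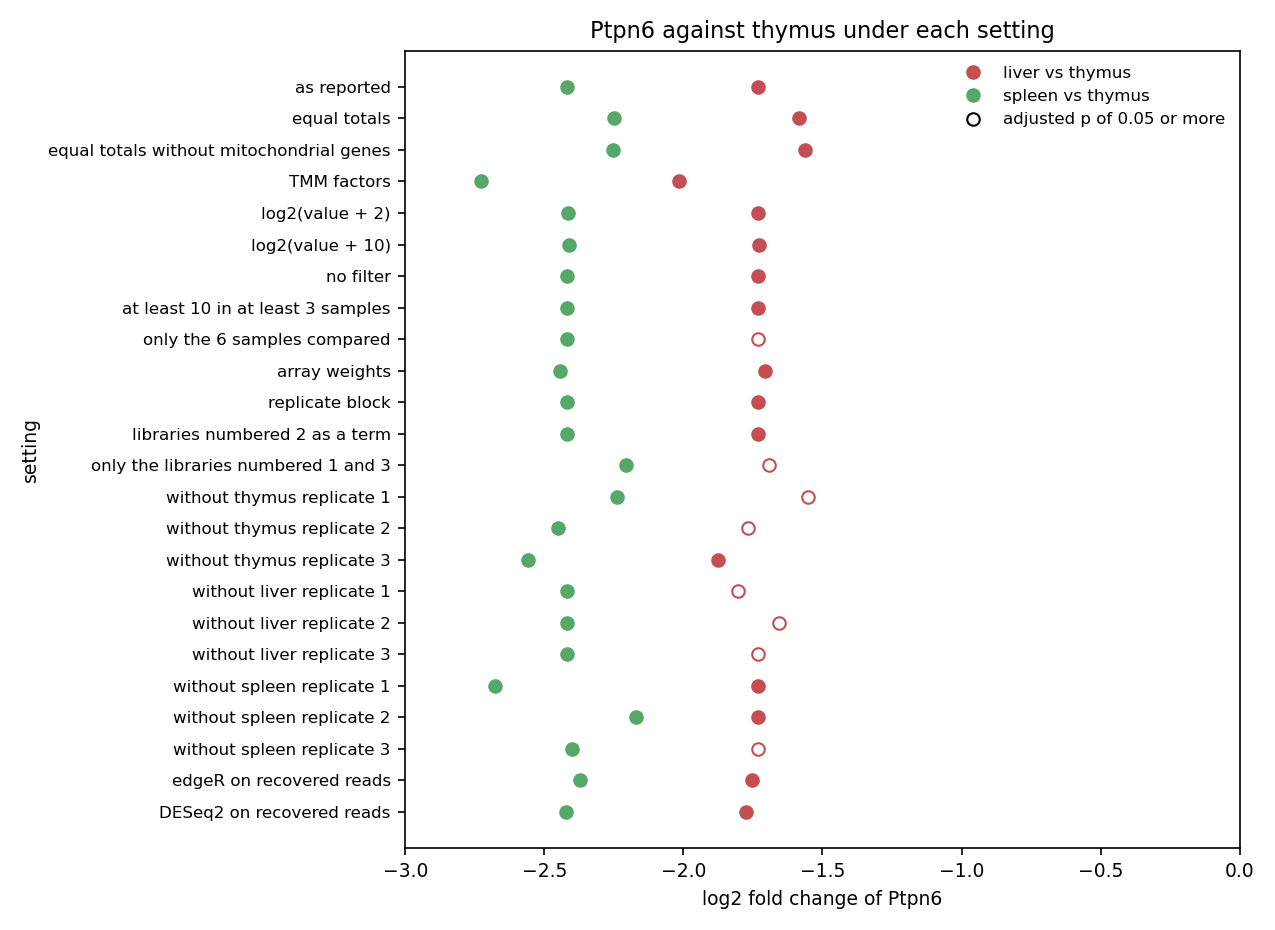
The log2 fold change of Ptpn6 (horizontal axis) in liver and spleen against thymus under each setting (vertical axis), with open points where the adjusted p was 0.05 or more. The spleen points run from -2.73 to -2.17 and are all filled, and 8 of the liver points are open.

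A ratio of 2 genes within a library does not depend on how the libraries were scaled. SHP-2, encoded by Ptpn11, is the closest relative of SHP-1 and is known mainly for promoting Ras and ERK signalling. Per kilobase of the longest protein-coding transcript, Ptpn6 exceeded Ptpn11 by 20.99-fold, 14.7-fold and 26.4-fold in thymus replicates 1, 2 and 3. The ratios were 4.53, 4.21 and 7.86 in liver and 3.54, 2.02 and 3.58 in spleen. Ptpn6 was thus the more abundant of the pair in all 9 libraries, and the lowest thymus ratio was above the highest in liver and spleen. Relative to Ptprc per kilobase, Ptpn6 stood at 0.819, 0.373 and 0.487 in thymus. In liver it stood at 0.221, 0.165 and 0.172, and in spleen at 0.189, 0.0914 and 0.121. The thymus ratios lay above all others on this measure too, whereas those of liver and spleen overlapped. Relative to Ptpn2 per kilobase, Ptpn6 stood at 3.67, 6.93 and 3.91 in thymus. It stood at 3.40, 1.67 and 1.26 in liver and at 2.69, 0.966 and 1.16 in spleen, so thymus was highest only narrowly. Relative to Ptpn22 the values were 1.28, 2.57 and 0.894 in thymus, 0.384, 0.396 and 0.530 in liver, and 0.578, 0.226 and 0.288 in spleen. With all exons of a gene as its length, every ratio to Ptprc is 2.97 times as large and every ratio to Ptpn11 1.102 times, with the same order of libraries.

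**Figure D3:**
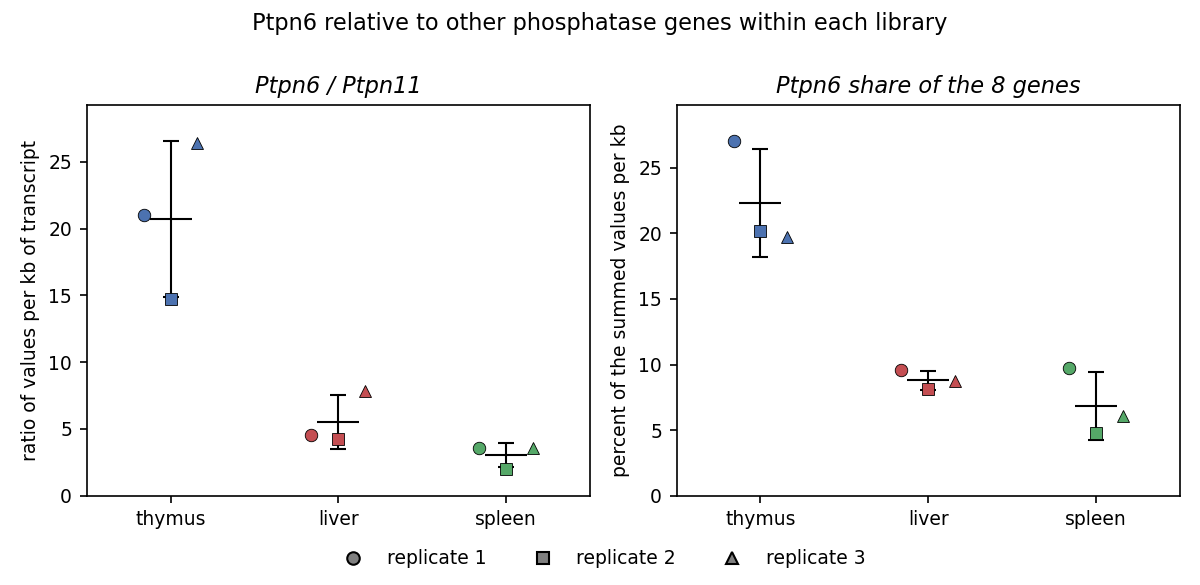
Ptpn6 relative to other phosphatase genes within each library, by tissue, with the mean and SD as bars: on the left the Ptpn6 to Ptpn11 ratio of values per kilobase, on the right the Ptpn6 percentage of the summed values per kilobase of the 8 genes. Thymus ratios lie between 14.7 and 26.4 and thymus percentages between 19.7% and 27.1%, above all liver and spleen libraries.

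Levels of different genes were compared only as normalised read counts per kilobase of that transcript. Ptprc was the highest of the 8 in every tissue, with thymus at 10630 ± 2967, liver at 8992 ± 673 and spleen at 8049 ± 245. In thymus Ptpn6 followed at 5596 ± 1305 per kilobase, and then Ptpn22 at 4193 ± 1883 and Ptpn7 at 2485 ± 788. The thymus ranges of Ptpn6 and Ptpn22 overlapped, as did those of Ptpn22 and Ptpn7. In liver Ptpn22 (3889 ± 828) and Ptpn7 (2443 ± 280) stood above Ptpn6 (1661 ± 170), and no 2 neighbours overlapped from Ptprc down to Ptpn1. In spleen the order was again Ptpn22 (3101 ± 484), Ptpn7 (1901 ± 189) and Ptpn6 (1073 ± 378), and Ptpn6 overlapped only with Ptpn2 below it (724 ± 160). Ptpn2 came next in each tissue, and Ptpn1, Ptpn11 and Ptprj filled the last places, where each overlapped its neighbour. With all exons of a gene as its length, Ptpn6 (4609 per kilobase) was above Ptprc (2945) in thymus and Ptpn6 (1368) above Ptpn7 (1306) in liver, with overlapping ranges in both pairs, so these orders depend on the length used. With that length the ranges of Ptpn22 and Ptpn6 overlapped in liver, as did those of Ptpn22, Ptpn7 and Ptpn6 from neighbour to neighbour in spleen.

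As a share of the summed values per kilobase of the 8 genes, Ptpn6 made up 27.1%, 20.2% and 19.7% in the thymus libraries. It made up 9.55%, 8.11% and 8.73% in liver and 9.76%, 4.79% and 6.04% in spleen. With all exons as the length these shares were 41.9%, 36.5% and 33.6% in thymus, 17.8%, 15.4% and 16.3% in liver, and 18.3%, 9.52% and 11.7% in spleen, so their size depends on the length, while thymus lay above all others with either. Between its highest and lowest library, Ptprj varied most (16.03-fold), then Ptpn1 (12.1-fold) and Ptpn6 (9.61-fold). Ptpn2 (3.56-fold), Ptpn22 (2.70-fold), Ptpn11 (2.45-fold), Ptpn7 (1.90-fold) and Ptprc (1.80-fold) varied less. For Ptprj and Ptpn1 much of this range lay within a tissue. For Ptpn6 the 5.22-fold and 3.37-fold differences between thymus and the other means exceeded the range within any tissue, but the 1.55-fold difference between liver and spleen means did not exceed the range within spleen (1692 to 3417).

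Among the receptor-type members, Ptprc (chr1:138062861-138175708, minus strand) had normalised read counts of 43631, 71216 and 46964 in thymus, 42038, 46004 and 48833 in liver, and 39668, 40711 and 42142 in spleen. Every spleen value lay below every thymus value, with a difference of -0.37 (SE 0.18) on the log2 scale, and liver overlapped both. Thymus replicate 2 held the highest Ptprc value of all libraries. Without that library the spleen difference was -0.15, and over the 23 settings it lay between -0.68 and -0.15.

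Ptprj (chr2:90429754-90580647, minus strand) encodes CD148, a receptor-type enzyme that acts on Src family kinases. Its counts were 567, 221 and 1478 in thymus, 2325, 1758 and 1751 in liver, and 3541, 1211 and 1504 in spleen. Every liver library was above every thymus library, while spleen overlapped both tissues. The difference from thymus was 1.75 (SE 0.65) in liver and 1.70 (SE 0.65) in spleen, and neither passed the threshold in any of 23 settings. The highest Ptprj value, in spleen replicate 1, came with the highest summed level of the myeloid marker list, 4425 against 326 to 2236 in the other libraries. In the same library Sirpa (1353), Cd300a (1442) and Cd22 (1963), which mark other blood cells, had their highest values. Without spleen replicate 1 the spleen difference of Ptprj from thymus was 1.24. The part of other cells in the Ptprj level was not tested.

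Ptpn7 (chr1:135132700-135145317, plus strand) encodes a phosphatase that acts on the MAP kinases ERK and p38. Its counts were 6417, 11062 and 6833 in thymus, 8704, 6947 and 8248 in liver, and 5828, 5857 and 6907 in spleen. The liver and spleen libraries did not overlap, narrowly, with a difference of 0.36 (SE 0.27). Thymus overlapped both.

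Ptpn22 encodes a phosphatase that works with the kinase Csk and acts on Lck and Zap70. Its counts were 15088, 5581 and 13833 in thymus, 13086, 10331 and 8583 in liver, and 7022, 8911 and 9583 in spleen. All 3 tissues overlapped, and thymus replicate 2 was the lowest of the 9 libraries. The liver against thymus difference was -0.0019 (SE 0.34) and that of spleen against thymus -0.32 (SE 0.34).

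Ptpn2, whose product acts on Jak and STAT proteins and on Lck, had counts of 5116, 2016 and 3076 in thymus, 1435, 2382 and 3507 in liver, and 1466, 2023 and 2304 in spleen. The tissues overlapped, with differences from thymus of -0.47 (SE 0.45) in liver and -0.74 (SE 0.45) in spleen. Ptpn1, which encodes PTP1B, a close relative of the Ptpn2 product anchored at the endoplasmic reticulum, had counts of 2403, 199 and 1831 in thymus, 1622, 1977 and 1290 in liver, and 372, 982 and 1624 in spleen. Thymus replicate 2 and spleen replicate 1 were far below the rest, and the tissues overlapped. The 199 of thymus replicate 2 corresponds to 172 recovered reads, the fewest behind any member value. Ptpn11 had counts of 1879, 1990 and 955 in thymus, 2263, 1983 and 1182 in liver, and 2342, 2028 and 1573 in spleen, again with overlap of all tissues. Ptpn11 was above the thymus mean in spleen by 0.35 (SE 0.46) and in liver by 0.19 (SE 0.46), within its SE in both.

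**Figure D4:**
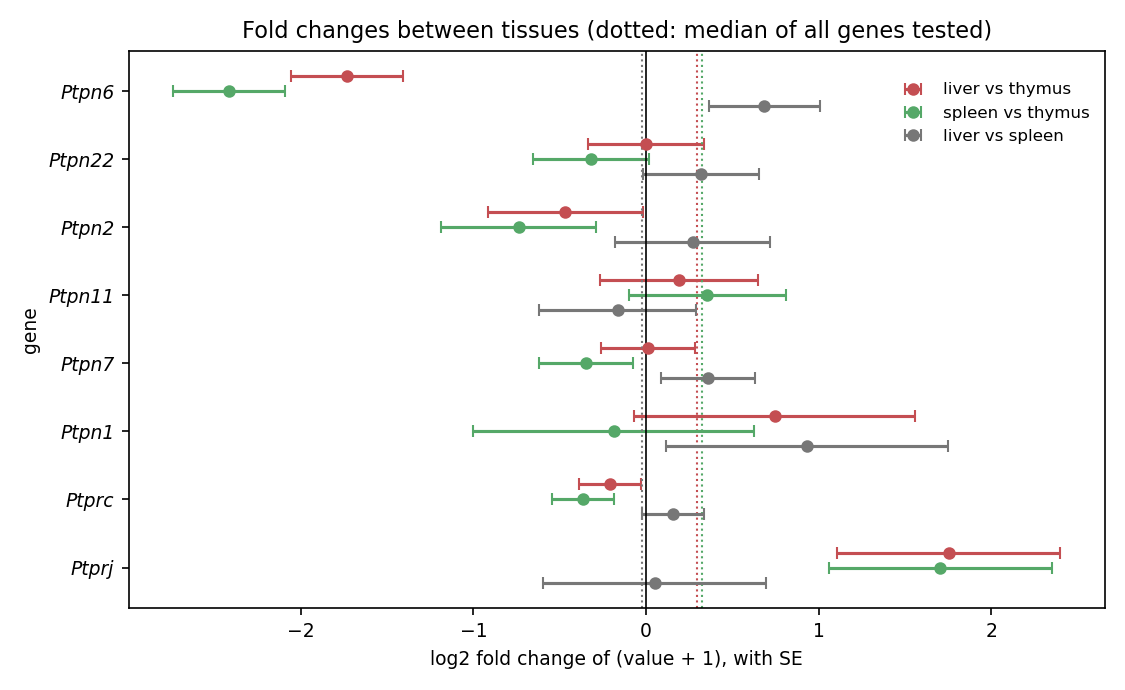
The log2 fold change of (value + 1) with its SE (horizontal axis) for the 8 phosphatase genes in the 3 comparisons, with the median of all genes as dotted lines. Ptpn6 lies at -1.73 and -2.42 against thymus, Ptprj at 1.75 and 1.70, and the other 6 genes between -0.74 and 0.74 in these thymus comparisons.

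Of the 8 genes, 1 (Ptpn6, lower) passed the threshold in liver against thymus, where 0.323% of all genes did, and 1 (Ptpn6, lower) in spleen against thymus, where 0.398% did. At an unadjusted p under 0.05 in limma there were 2 of 8 in each thymus comparison, beside 11.6% and 11.7% of all genes. None passed the threshold in liver against spleen, where 0.015% of all genes did by limma. At an unadjusted p under 0.05 the count of members there was 0, beside 3.03% of all genes. In DESeq2 and edgeR none of the 8 passed in that comparison either, where 23 and 2 of all genes did. Values of the tissues did not overlap for 2 of 8 genes in each comparison. In liver against thymus these were Ptpn6 and Ptprj, with 15.3% of all genes free of overlap. In spleen against thymus they were Ptpn6 and Ptprc (15.3% of all genes), and in liver against spleen Ptpn6 and Ptpn7 (12.7%). The rule chose the members from these contrasts, so nothing is read from the shares. The median difference of the 8 genes was 0.01, -0.33 and 0.29 in the 3 comparisons, against 0.29, 0.33 and -0.02 over all genes.

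Across the 9 libraries the members did not move as 1 group. The highest Pearson r of log2(value + 1) was 0.90, between Ptpn22 and Ptpn1, both lowest in thymus replicate 2 and next lowest in spleen replicate 1, and the next 0.83, between Ptpn7 and Ptprc, both highest in thymus replicate 2. The lowest was -0.79, between Ptprc and Ptprj. Ptpn6 had r of 0.54 with Ptprc, 0.51 with Ptpn2, -0.22 with Ptpn11 and -0.62 with Ptprj. The points of each correlation share tissue and library.

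Of 8864 genes with a mean of at least 100, those whose pattern over the 9 libraries was most like Ptpn6 were Exd2 (r = 0.97), Anapc5 (0.97), Nap1l1 (0.95), Fgd6 (0.93) and Klra5 (0.93). Exd2, an exonuclease gene, had means of 2286 ± 855 in thymus, 587 ± 86.2 in liver and 354 ± 96.8 in spleen. Anapc5, a subunit of the anaphase-promoting complex, had 4070 ± 1111, 1924 ± 170 and 1217 ± 272 in the same order. Klra5 belongs to a receptor family of near-identical copies, between which reads may be split, and its level is uncertain. For Ptprc the most alike was Eef1d (r = 0.95), a translation elongation factor subunit, followed by Mdp1, Mcm6, Zfp639 and Rplp0. For Ptpn7 the genes were Fbh1 (r = 0.96), Scrn2, Eef1g, Zfp945 and Zfp266, and for Ptprj they were Cactin (r = 0.99), Slc45a4, Axl, Mmgt2 and Tfe3. Cactin had means of 62.9 ± 94.6 in thymus, 316 ± 264 in liver and 450 ± 531 in spleen, so the likeness to Ptprj includes spread within tissues.

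The antisense gene model Gm20531 lies on the opposite strand and shares 195 exonic bases with Ptpn6. The counting is not stated to use strand, so reads there cannot be assigned to either with certainty. Gm20531 had values of 323, 25.5 and 64.0 in thymus, 87.0, 65.2 and 157 in liver, and 0, 92.1 and 1.72 in spleen, small beside those of Ptpn6. The other 7 members share no exonic base with another annotated gene.

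Of 29 other classical tyrosine phosphatase genes, 13 were in the table, and none of the 13 passed the threshold in any comparison by limma. At an unadjusted p under 0.05 there were 3 of 13 in liver against thymus, 3 in spleen against thymus and 1 in liver against spleen, where 11.6%, 11.7% and 3.03% of all genes tested were under that value. Ptpn4, which encodes an enzyme with FERM and PDZ domains, had 8117, 7307 and 4318 in thymus, 6700, 4106 and 2660 in liver, and 1338, 2165 and 1674 in spleen. All spleen values were below all others, with a difference from thymus of -1.91 (SE 0.40, adjusted p = 0.0521 in limma) that passed in 6 of 23 settings. Ptpre, a receptor-type gene, had 4779, 5165 and 5781 in thymus, all above the liver values (3053, 2877 and 1878) and the spleen values (2149, 4166 and 2404). Its differences from thymus were -1.04 and -0.91 (SE 0.36 for both), with adjusted p = 0.287 and 0.333 in limma. Ptpn12 and Ptpn18, the other genes named for their level, had means of 2051 and 2579 in thymus and overlapped between all tissues.

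Ptpn5, known as the striatum-enriched phosphatase STEP, was singled out after its values were seen. It had 1860, 2576 and 1425 in thymus, 1.72, 42.0 and 128 in liver, and 0.701, 67.4 and 1.13 in spleen. The lowest thymus value lay far above the highest elsewhere, yet the spread between low libraries was wide. The differences were -6.26 (SE 1.86, adjusted p = 0.213) in liver and -8.24 (SE 1.86, adjusted p = 0.0775) in spleen by limma, and they passed in 1 and 3 of 23 settings.

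Of 19 dual-specificity phosphatase genes, which mostly switch off MAP kinases, 16 were tested and none passed by limma in any comparison. Unadjusted p was under 0.05 for 4 of the 16 in liver against thymus (11.6% of all genes) and for 0 in spleen against thymus (11.7%) and liver against spleen (3.03%). Dusp2, an immediate early gene of T cell activation, had 2606, 8371 and 1289 in thymus, 826, 942 and 571 in liver, and 2114, 1648 and 1070 in spleen, with liver below both others. Dusp6, an ERK-specific phosphatase, had 81.9, 618 and 822 in thymus against 1384, 2425 and 2513 in liver (difference 2.55, SE 0.78, adjusted p = 0.225 in limma), and in spleen 551, 1485 and 1421.

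Of the 20 partner and adaptor genes, 1 passed the threshold by limma in each thymus comparison, where 0.323% and 0.398% of all genes did. It was higher than in thymus, and no gene of the list passed as lower. Unadjusted p was under 0.05 for 6 of 20 in liver and 4 of 20 in spleen against thymus (11.6% and 11.7% of all genes). The gene past the threshold was Themis, whose T-lineage protein binds SHP-1 and Grb2. Themis had 127, 1043 and 465 in thymus, 5756, 3685 and 4234 in liver, and 5886, 3733 and 4353 in spleen. All thymus libraries lay below all others, which is the reverse of the Ptpn6 order, and liver and spleen overlapped. The difference was 3.50 (SE 0.60, adjusted p = 0.0197) in liver and 3.53 (SE 0.60, adjusted p = 0.0151) in spleen by limma, and these passed in 18 and 19 of 23 settings. The liver call was lost by limma without liver replicate 1, 2 or 3 (adjusted p = 0.140, 0.0932 and 0.140) and by edgeR (0.0558), within a range of 4.85e-05 to 0.140. The spleen call was lost without spleen replicate 1, 2 or 3 (0.104, 0.0683 and 0.0897), within 3.56e-05 to 0.104, and both were lost with only the 6 libraries compared. The levels at the highest means of the list were those of Lcp2, Cbl, Cblb and Sh2d2a. Lcp2, the adaptor SLP-76, had 11209, 12932 and 11061 in thymus and 17958, 16863 and 15729 in liver (difference 0.52, adjusted p = 0.318 in limma). Pag1, which anchors Csk at the membrane, was singled out after its values were seen, with 18077, 8876 and 6705 in thymus, 2075, 4453 and 2793 in liver, and 4103, 5821 and 4623 in spleen. Its liver difference was -1.79 (SE 0.38, adjusted p = 0.0656 in limma).

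Of the 12 tyrosine kinases that these enzymes act on or oppose, 1 passed the threshold by limma, as higher in spleen against thymus. None passed in the other comparisons. Unadjusted p was under 0.05 for 3 of 12 in each thymus comparison (11.6% and 11.7% of all genes) and 1 of 12 in liver against spleen (3.03%). The gene past the threshold was Jak2, which transmits cytokine signals. Jak2 had 3893, 4466 and 4495 in thymus, 5850, 7570 and 7571 in liver, and 9420, 16739 and 14221 in spleen. The 3 tissues did not overlap, in the reverse of the Ptpn6 order. The spleen difference was 1.61 (SE 0.27, adjusted p = 0.0151 in limma) and passed in 19 of 23 settings, and that of liver was 0.70 (SE 0.27, adjusted p = 0.335). The spleen call was lost by limma without spleen replicate 2 (adjusted p = 0.127) or 3 (0.114), with only the 6 libraries compared (0.0756) and with only the libraries numbered 1 and 3 (0.265), within a range of 1.47e-05 to 0.265. Lck, the kinase that starts T cell receptor signalling, had means of 6711 in thymus, 8259 in liver and 5662 in spleen. Jak1, which serves many cytokine receptors, had means of 22735, 22061 and 17268 in the same order, with adjusted p from 0.565 to 0.9999 in limma.

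**Figure D5:**
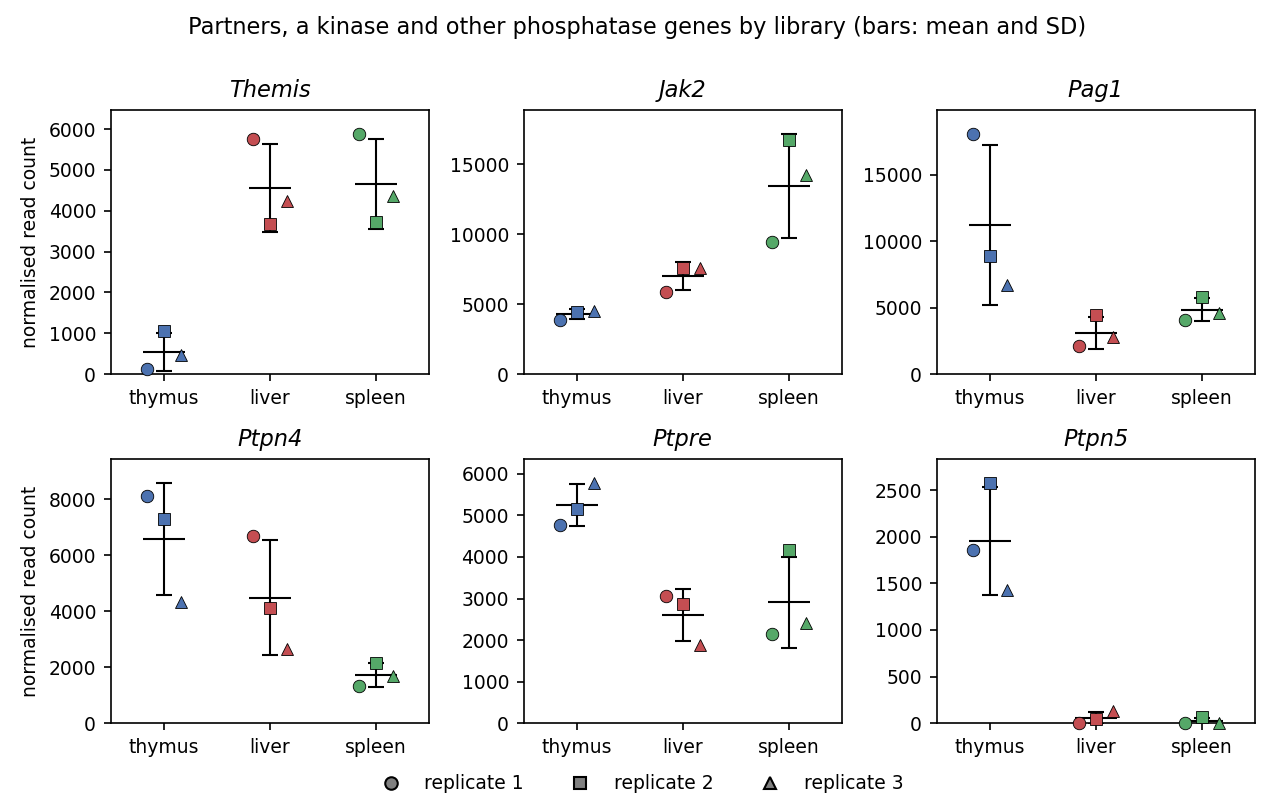
Normalised read count (vertical axis, from 0) by tissue and library of Themis, Jak2, Pag1, Ptpn4, Ptpre and Ptpn5, with the mean and SD as bars. Themis is at most 1043 in thymus and at least 3685 elsewhere, Jak2 is lowest in thymus and highest in spleen, and Ptpn5 is at least 1425 in thymus and at most 128 elsewhere.

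Of 20 receptors listed for tyrosine inhibitory motifs, 15 were tested and none passed by limma in any comparison. Whether each of them binds SHP-1 was not tested. Unadjusted p was under 0.05 for 6, 7 and 2 of the 15 in liver against thymus, spleen against thymus and liver against spleen, beside 11.6%, 11.7% and 3.03% of all genes. The list median was 1.53 in liver and 2.21 in spleen against thymus, where that of all genes was 0.29 and 0.33. Many of the genes were low and unevenly detected, and Pecam1, which gave the spleen median, had 302, 71.7 and 218 in thymus, 671, 458 and 623 in liver, and 394, 1335 and 903 in spleen. Cd300a, Sirpa and Cd22 had their highest values in spleen replicate 1, the library with the highest myeloid and B cell marker sums, and the part of those cells was not tested. Among the 4 most abundant, Ly9 had 10708, 6708 and 7003 in thymus, 4980, 6638 and 4228 in liver, and 4585, 4843 and 5024 in spleen, with thymus above both (adjusted p = 0.428 and 0.337 in limma). Klrc1, which encodes NKG2A, had means of 4391 in thymus, 2214 in liver and 1964 in spleen, Btla 2038, 3108 and 2225, and Cd5 1387, 2356 and 1958. Of 4 splicing regulators of the variable CD45 exons (Hnrnpll, Hnrnpl, Ptbp1 and Sfpq), none passed by limma, and 1 (Hnrnpl, -0.62 in liver against thymus) had an unadjusted p under 0.05 in 1 comparison.

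Over the whole table, 43 genes passed in liver against thymus (27 higher and 16 lower), 53 in spleen against thymus (25 and 28) and 2 in liver against spleen. With TMM factors the split was 19 higher and 25 lower in liver and 27 and 65 in spleen against thymus, and with equal totals it was 22 and 16 in spleen against thymus. Recovered reads ran from 3871001 in liver replicate 3 to 39604258 in spleen replicate 3, and liver replicate 3 was the shallowest by far. The 10 iNKT1 markers were all in the table, with summed levels of 126375 to 158082 in thymus, 154860 to 172909 in liver and 115067 to 133655 in spleen. Most of each sum was Cd3e, Cd3g, Trac and Il2rb. Single markers were less even, such as Ifng, at 24.3 in thymus replicate 2 and at least 1082 elsewhere. B cell markers summed to 3157 to 5352, 5625 to 8085 and 5312 to 11396 in these tissues, and Cd79a, Cd79b and Ms4a1 had no read in thymus. The B cell sum was mostly Ighm, and without it the sums were 0.126, 1.33 and 110 in thymus, 747, 1.69 and 368 in liver, and 2395, 52.2 and 83.1 in spleen. Myeloid markers summed to 326 to 982 in thymus, 545 to 2236 in liver and 657 to 4425 in spleen, so these sums overlapped between tissues. Spleen replicate 1, highest in both sums, also held the highest Ptpn6 value of the spleen libraries (3417, against 1692 and 2319). B and myeloid cells are known to hold SHP-1, and their part in the Ptpn6 difference was not tested. Hepatocyte markers reached 1376 to 1729 in liver against at most 270 elsewhere. In liver that sum was mostly Alb (1172 to 1588), as was the 270 of thymus replicate 2 (268). Immature thymocyte markers summed to 1922 to 7398 in thymus, 6608 to 9078 in liver and 5471 to 10081 in spleen. The last sum was mostly Cd4, which mature T cells also express. Without Cd4 it was 16.9, 5.92 and 936 in thymus, 1157, 167 and 88.8 in liver, and 2.83, 2.68 and 26.8 in spleen. Rag1, specific to lymphocytes that rearrange their receptors, was at 486 in thymus replicate 3 and at most 0.815 in the other libraries. Arpp21 was at 153 there and at most 5.81 elsewhere, and Dntt at 11.3 and at most 0.631. Cd8a and Cd8b1 were instead highest in liver replicate 1, at 1116 and 40.9, against 257 and 28.9 in thymus replicate 3. The part of immature thymocytes in the Ptpn6 level was not tested. The libraries numbered 2 stood apart by Xist, at 84543 to 107736, with at most 21 reads of Y-linked genes. Thymus replicate 3 held both Xist (16531) and Y-linked reads (7009). With the number 2 libraries as a term in limma, Ptpn6 passed in both thymus comparisons (adjusted p = 0.0278 and 0.00223).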

How the data were processed

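RNA-seq was analysed in 9 libraries of iNKT1 cells, 3 per tissue, with the tissue taken from the labels. The authors deposited 1 signal value per gene and library, a normalised read count; the submitters' processing notes name Trimmomatic 0.33, TopHat2 2.1.0, HTSeq 0.6.1, edgeR and mm10, with roles not given in the sources used here. The values lie on equal steps, 1 per read, so reads were recovered by rounding; of 15739 low values (up to 20 reads), 92.9% were whole to within 0.1 reads (liver replicate 3, 70.7%). Recovered reads served only as alternatives. The column of thymus replicate 2 has a prefix that the labels do not explain.

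The test planned for counts was replaced, as planned for normalised values, by limma-trend on log2(value + 1) with limma 3.58.1 and R 4.3.3. It took the 13309 genes with at least 1 in 3 samples, 1 term per tissue, two-sided p-values and Benjamini-Hochberg adjustment over all genes. Fold changes understate the change of low genes. The design text names independent replicates, but the labels do not give the animals behind them, so p-values measure the spread between these libraries. Symbols matched 13359 of 14004 identifiers; gene positions and transcript lengths are from GENCODE M21 (GRCm38), promoters from RefSeq.

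Members and gene lists were chosen with earlier results of these data known. By rule the text names all members, list genes past the threshold and the 4 highest of each list, and the 5 genes most alike in pattern. Some genes that the rule names are not reported here. Alternatives were 3 scalings, 2 pseudocounts, 2 filters, fewer samples, sample weights, a block, single libraries left out, edgeR 4.0.16 and DESeq2 1.42.0 on recovered reads; the scaling without mitochondrial genes, and all exons in place of the longest coding transcript as a gene's length, were chosen after seeing the data. The test was checked on simulated data.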

Additional observations from a re-analysis of the deposited data

How the results depend on the processing

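Across 23 alternatives the count of members past the threshold in spleen against thymus stayed at 1 (Ptpn6), and it was 0 in liver against spleen. In liver against thymus it was 0 with only the 6 samples compared and with only the libraries numbered 1 and 3, and 0 to 1 when 1 library was left out. Of all genes in liver against thymus, 12 passed with only the 6 samples compared, 12 with only the libraries numbered 1 and 3, 22 by edgeR, 450 by DESeq2, and 8 to 151 without 1 library. In spleen against thymus these counts were 92 with TMM factors (27 higher, 65 lower), 16 in the fit of only the 6 samples, 19 with only the libraries numbered 1 and 3, 508 by DESeq2, and 9 to 140 without 1 library. In liver against spleen they were 6 with only the 6 samples compared, 18 with sample weights, 4 with the replicate block, 0 with only the libraries numbered 1 and 3 (339 at an unadjusted p under 0.05), 23 by DESeq2, and 0 to 3 without 1 library. Among counts without 1 library, the highest against thymus came without thymus replicate 3, the lowest without liver replicate 2 or 3 (8 each) and without spleen replicate 3 (9), and the cause was not tested. Correlations of the deviations of libraries with the same replicate number ran from -0.00073 to 0.089, with a mean of 0.040. For different numbers they ran from -0.087 to 0.048, with a mean of -0.020. Correlations this weak cannot decide whether libraries with the same number share animals. With the number as a block, Ptpn6 had adjusted p = 0.0240 and 0.00227 in limma against thymus. TMM factors moved the median of all genes to 0.04 in both thymus comparisons, from 0.29 and 0.33, and Ptpn6 then lay at -2.02 and -2.73. No result changed sign while past the threshold. Depth limits the low values of liver replicate 3 most, with 6.05 units per read.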
